A study of Mus musculus with 2 samples.

Results

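The genes described here are receptors for sphingosine 1-phosphate (S1P), lysophospholipids and oxysterols, together with Cd69, whose protein holds the S1P receptor S1pr1 inside the cell. They were chosen by name, as 10 genes: S1pr1, S1pr2, S1pr4, S1pr5, Cd69, Gpr183, Gpr34, Gpr174, P2ry10 and Gpr55. Of these, 9 had at least 1 probe set annotated to them alone, 12 probe sets in all, out of 18194 genes on the array with a probe set of their own. Gpr55, a receptor for lysophosphatidylinositol, had none and was not analysed here.

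Expression was measured in 2 populations of natural killer (NK) cells from the liver of untreated wild-type B6 mice. The first was negative for DX5, an antibody against the integrin chain Itga2, and the second was positive for it; both were sorted as NK1.1+ and CD3- cells. Each population gave 1 Affymetrix array, and the sources used here do not state the age, sex or number of the mice. With 1 array per population there was no replicate and no test was made, so every ratio below describes these arrays and not the spread between mice. Because the cells were measured in bulk, fewer cells that express a gene and less RNA per cell cannot be told apart.

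S1P and oxysterols guide lymphocytes between blood, lymph and tissue. S1P is abundant in blood and lymph and scarce inside tissues, so a cell that carries S1pr1 or S1pr5 can follow it out of a tissue, and mouse NK cells are known to use S1pr5 to leave bone marrow and lymph nodes. CD69 binds S1pr1 and causes its loss from the cell surface, and it is carried by activated lymphocytes and by many tissue-resident ones. Gpr183 (EBI2) follows dihydroxylated oxysterols, and Gpr34, P2ry10 and Gpr174 are receptors for lysophosphatidylserine.

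Promoter windows are shown for a receptor that was lower in DX5- cells (S1pr5), a receptor of the same family on the same chromosome that was within 2-fold (S1pr2), and a receptor that was higher (Gpr183). They are RefSeq sequences of build GRCm38.p6 that run from 250 bases before to 50 bases after the annotated gene start, 5′ to 3′ on the gene's own strand. The S1pr5 window is chr9:21248394-21248693, the S1pr2 window chr9:20976744-20977043 and the Gpr183 window chr14:121965144-121965443, all on the minus strand. Capitals mark matches to any of 6 short motifs searched on both strands.
S1pr5: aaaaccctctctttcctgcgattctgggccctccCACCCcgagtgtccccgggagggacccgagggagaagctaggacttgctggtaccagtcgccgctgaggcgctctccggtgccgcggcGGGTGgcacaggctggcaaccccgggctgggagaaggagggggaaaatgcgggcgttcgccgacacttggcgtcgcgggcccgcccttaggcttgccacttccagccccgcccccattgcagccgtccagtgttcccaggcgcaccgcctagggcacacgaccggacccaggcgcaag
S1pr2: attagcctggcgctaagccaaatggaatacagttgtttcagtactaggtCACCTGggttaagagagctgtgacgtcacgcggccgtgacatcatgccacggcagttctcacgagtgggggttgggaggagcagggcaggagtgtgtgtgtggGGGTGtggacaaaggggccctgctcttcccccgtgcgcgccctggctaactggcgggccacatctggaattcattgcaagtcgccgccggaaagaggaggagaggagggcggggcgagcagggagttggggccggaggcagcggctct
Gpr183: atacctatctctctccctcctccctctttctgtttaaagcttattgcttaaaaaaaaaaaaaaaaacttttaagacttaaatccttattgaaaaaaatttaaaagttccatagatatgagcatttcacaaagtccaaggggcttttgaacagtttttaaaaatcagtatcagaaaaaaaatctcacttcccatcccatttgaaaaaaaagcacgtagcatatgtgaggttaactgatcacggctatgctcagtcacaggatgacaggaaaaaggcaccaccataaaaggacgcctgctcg

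The motifs were GTGTGA for T-box factors, GGGTG for KLF factors, CAGGTG for ZEB factors, TGTGGT for Runx factors, TGANTCA for AP-1 and GTAAACA for Foxo factors. The S1pr5 window held 2 KLF motifs, at bases 35 to 39 and 123 to 127 counted from its 5′ end, and no other match. The S1pr2 window held 1 ZEB motif and 1 KLF motif, and the Gpr183 window held no match. No matches overlapped in these windows. Of 32851 RefSeq windows of the same length, 57.5% held the KLF motif, 20.2% the ZEB motif, 16.8% the Runx motif, 14.5% the T-box motif, 7.81% the AP-1 motif and 3.65% the Foxo motif, so a KLF match is common. G and C made up 69.3% of the S1pr5 window, 62.0% of the S1pr2 window and 35.3% of the Gpr183 window, against a median of 52.7% over all windows.

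Levels are given as MAS5 intensities, the linear signal of a probe set on its array. The detection limit of an array was the 95th percentile over 154 of its probe sets, all for genes with little use in lymphocytes or liver, such as olfactory receptors. It came to 98.4 for the DX5- array and 107 for the DX5+ array. Where a gene was below the limit on 1 array, that limit replaced its value and the ratio is a lower bound, written "at least". The log2 ratio is DX5- minus DX5+. Of 9862 genes above the limit on at least 1 array, 5.36% were 2-fold or more lower in DX5- cells and 3.61% higher by 2-fold or more (529 and 356 genes). The split depended on scaling and on the limit: with arrays scaled to the hybridisation spike-in controls 348 were lower and 623 higher, and under a stricter limit, the 99th percentile, 276 were lower and 309 higher.

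All 9 measured members were above the limit on at least 1 array and 7 were above it on both. S1pr5 and S1pr1 were 2-fold or more lower in DX5- cells, Gpr34, Cd69 and Gpr183 were higher by 2-fold or more, and S1pr2, S1pr4, Gpr174 and P2ry10 were within 2-fold. At the 4-fold threshold S1pr5 and S1pr1 were lower and Gpr34 was higher, where 0.862% of detected genes were lower and 0.639% higher. The median log2 ratio of the 9 members was 0.41, against -0.01 over all detected genes, and was negative (-0.23 and -0.19) when probe sets were averaged or those ending in _x_at and _s_at were left out. Because the genes were listed with earlier results of these arrays known, these counts are a description only.

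**Figure D1:**
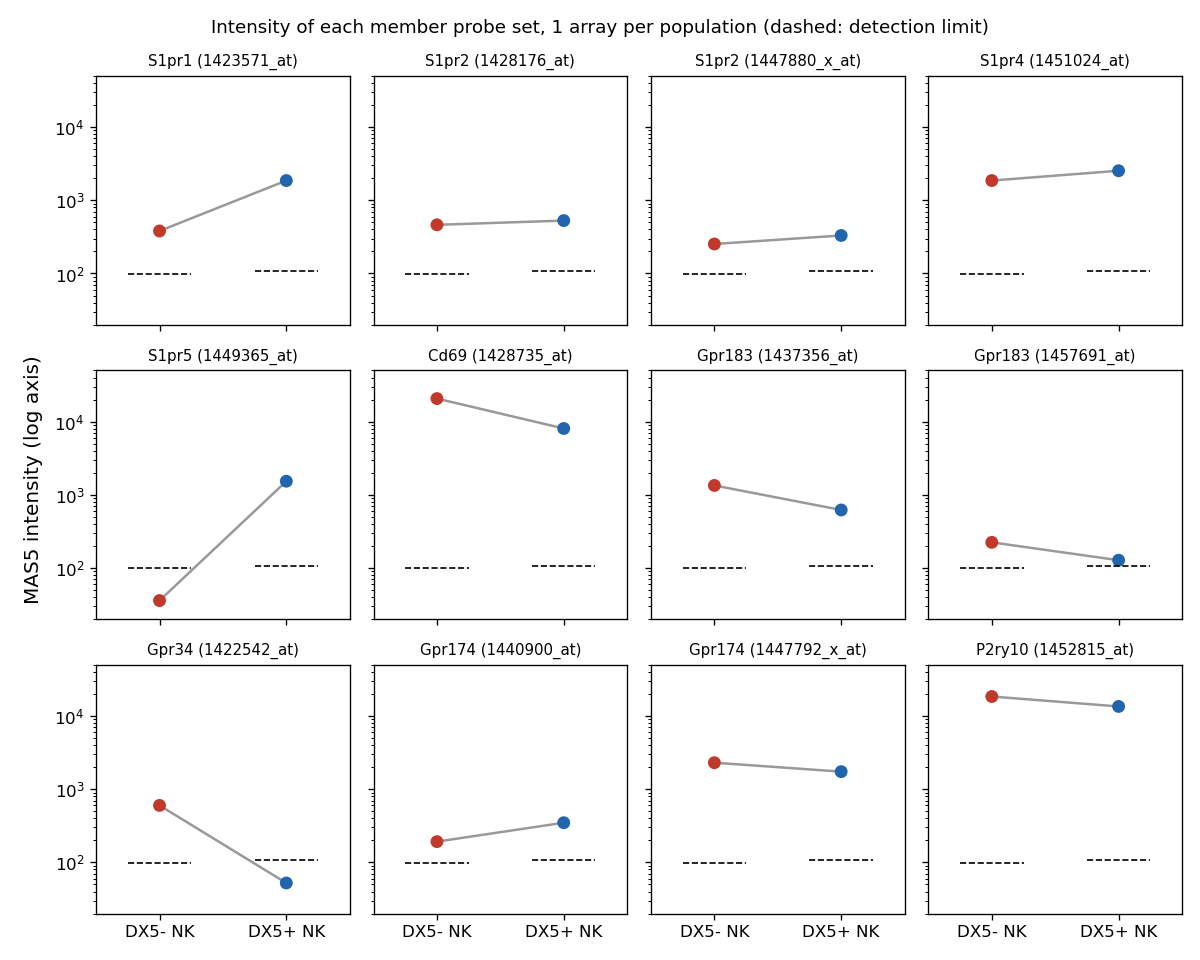
MAS5 intensity (log axis) of each of the 12 member probe sets on the DX5- array (left, red) and the DX5+ array (right, blue), with each array's detection limit as a dashed line. S1pr5 was below the limit on the DX5- array and Gpr34 below it on the DX5+ array, and the 2 Gpr174 probe sets slope in opposite directions.

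Among the S1P receptors, the genes used in tissue exit stood apart from the others. S1pr5 read 35.8 on the DX5- array, below the limit, and 1531 on the DX5+ array, 14.4 times the limit there. The gene was thus at least 15.6-fold lower in DX5- cells, at this limit the lowest ratio of all 9862 detected genes. Under the 99th percentile limit the bound was at least 4.83-fold, rank 24 from the low end of 8471 genes. S1pr1, the main exit receptor of T and B cells, read 381 in the DX5- sort against 1862 in the DX5+ sort, 4.89-fold lower (log2 ratio -2.29), rank 51 from the low end. Unlike S1pr5, it was above the limit in both populations, 3.87 times the limit on the DX5- array.

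The other S1P receptors differed less. S1pr4, a receptor found mainly on blood cells, read 1862 in the DX5- sort against 2536 in the DX5+ sort, a log2 ratio of -0.45. S1pr2, which is known to restrain migration and to hold B cells in germinal centres, read 462 in the DX5- sort against 528 in the DX5+ sort, a log2 ratio of -0.19. Its second probe set read 253 in DX5- and 331 in DX5+ cells, a log2 ratio of -0.39. With spike-in scaling, which moved the median of all detected genes to 0.20, the S1pr2 ratio was 0.03 and that of S1pr4 -0.23. S1pr3, the S1P receptor outside the set, was below the limit on both arrays (70.6 in the DX5- sort against 53.1 in the DX5+ sort).

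A difference between the log2 ratios of 2 genes does not depend on how the arrays are scaled to each other by 1 factor. The log2 ratio of S1pr1 minus that of S1pr2 was -2.10, so the signals of these S1P receptors differed unequally between the populations, by 4.28-fold. The bound for S1pr5 minus the ratio of S1pr2 was -3.77, and lay between -4.25 and -2.08 over the settings with a limit; without a limit the plain difference was -5.23. Ratios of S1pr4 and S1pr2 lay 0.25 apart, less than the SD of 0.32 found between probe sets of the same gene, which covers probe noise only.

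Cd69 went the other way from S1pr1. Its probe set read 20638 in the DX5- sort against 8047 in the DX5+ sort, 2.56-fold higher in DX5- cells (log2 ratio 1.36), rank 178 from the high end. Both values were far above the limit, by 210 times in the DX5- sort and 75.5 times in the DX5+ sort. The log2 ratio of Cd69 exceeded that of S1pr1 by 3.65, and by 3.55 to 3.65 over all settings. The arrays measure RNA, so the amount of CD69 or S1pr1 protein at the cell surface was not measured.

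Genes that activate Cd69 or are induced with it were also higher in part. In a list of 22 such genes, 21 were detected, 6 were 2-fold or more higher in DX5- cells and 0 lower by 2-fold or more, with a median log2 ratio of 0.63. The higher genes were the AP-1 subunit genes Junb (2.90-fold; 17757 in DX5- and 6117 in DX5+ cells), Fosb (2.47-fold), Jun (2.33-fold) and Fos (2.07-fold), and the activation-induced factors Egr2 (2.53-fold) and Atf3 (2.49-fold). The other 15 were within 2-fold and lay on both sides, from Irf7, an interferon regulatory factor (log2 ratio -0.68), to Nr4a3, a nuclear receptor (0.87). Jund, a further AP-1 subunit, was at -0.32, and Nfkbia, the feedback inhibitor of NF-kappaB, read 26369 in DX5- and 27034 in DX5+ cells. These immediate early genes also respond to cell handling, and the part of handling in the Cd69 result was not tested.

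The oxysterol receptor gene Gpr183 read 1341 in the DX5- sort against 620 in the DX5+ sort, 2.16-fold higher (log2 ratio 1.11). Its second probe set pointed the same way, with 224 in the DX5- sort against 128 in the DX5+ sort, but was within 2-fold at 1.76-fold. The mean over both gave a log2 ratio of 0.96, just inside 2-fold. In the order of ratios Gpr183 and Cd69 were neighbours, 0.25 apart on the log2 scale, less than the spread between probe sets.

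The enzymes of the Gpr183 ligand were little seen in either population. A wider list of oxysterol genes, not all of them enzymes of this ligand, also held the nuclear receptor gene Nr1h3. Of its 7 genes on the array, 6 were below the limit on both arrays. Among these were Cyp7b1 (19.4 in the DX5- sort against 46.4 in the DX5+ sort) and Hsd3b7 (44.5 in DX5- and 73.4 in DX5+ cells), which make and degrade the Gpr183 ligand. The first enzyme of its synthesis, Ch25h, was above the limit in DX5+ cells only and by a small margin (90.6 in the DX5- sort against 129 in the DX5+ sort).

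The 3 lysophosphatidylserine receptors did not share 1 pattern. Gpr34 read 601 in the DX5- sort against 52.3, below the limit, in the DX5+ sort, and was at least 5.64-fold higher in DX5- cells, rank 32 from the high end. P2ry10 read 18499 in the DX5- sort against 13525 in the DX5+ sort, a log2 ratio of 0.45, and was bright on both arrays. Gpr174, a receptor known to dampen T cell responses, gave no settled direction. Its brighter probe set (ending in _x_at, a kind that can bind related transcripts) read 2305 in the DX5- sort against 1738 in the DX5+ sort, while the other read 192 in DX5- and 349 in DX5+ cells, 1.81-fold lower in DX5- cells.

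P2ry10 and Gpr174 lie near each other on the X chromosome, with P2ry10b as the 1 protein-coding gene between them. P2ry10b is a close copy of P2ry10 and read 102.5 in the DX5- sort against 113 in the DX5+ sort, just above the limits. Whether transcripts of one bind the probe sets of the other was not tested. The bound for Gpr34 exceeded the ratio of P2ry10 by 2.04 on the log2 scale, and by 1.49 to 2.49 over the settings with a limit; without a limit the plain difference was 3.07.

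**Figure D2:**
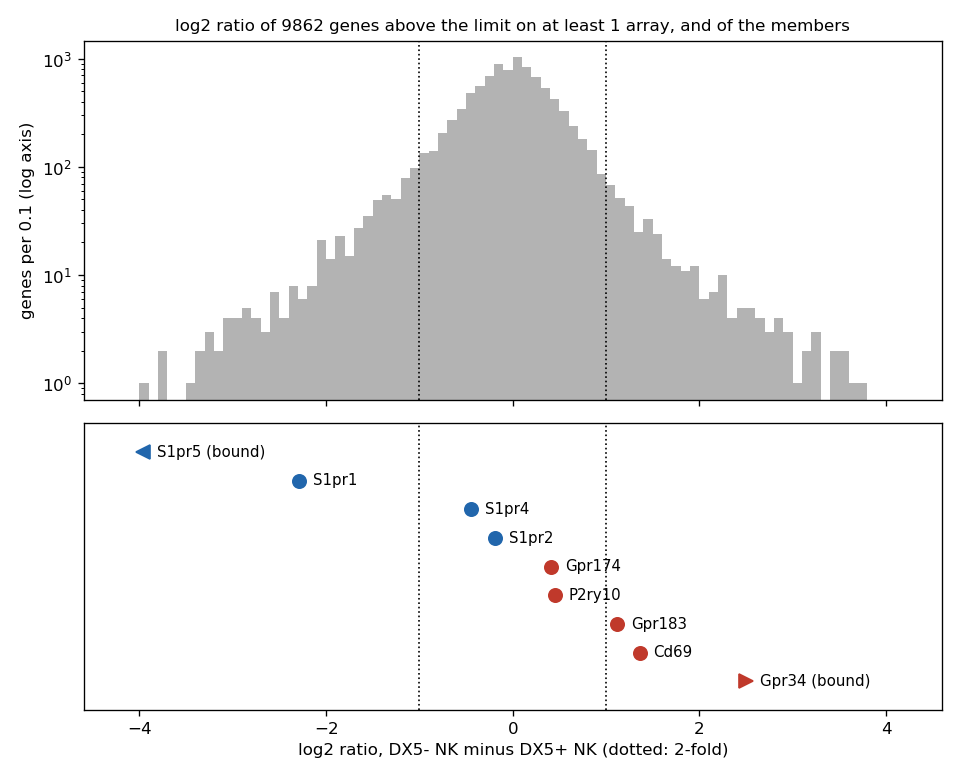
The upper panel shows the log2 ratio (DX5- minus DX5+) of 9862 detected genes as counts per 0.1 on a log axis, and the lower panel the 9 measured members, with triangles for bounds and dotted lines at 2-fold. S1pr5 at -3.96 is the lowest gene at this limit, S1pr1 lies at -2.29, and Cd69, Gpr183 and Gpr34 lie beyond 2-fold on the positive side.

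Genes around these receptors were examined as lists. Of 16 genes listed for the synthesis, transport or breakdown of S1P and related lipids, 10 were detected. Of these, 2 were lower and 1 was higher in DX5- cells by 2-fold or more (median -0.27). Plpp2, a lipid phosphate phosphatase, was 4.01-fold lower (214.5 in DX5- and 859.5 in DX5+ cells), and Abcg1, a sterol exporter, 2.07-fold lower (log2 ratio -0.83 with spike-in scaling). Sphk2, an S1P-producing kinase, was 2.09-fold higher (416 in DX5- and 199.5 in DX5+ cells), with its second probe set below both limits and a log2 ratio of 0.50 when probe sets were averaged. Sphk1, the other kinase, was below the limit on both arrays. Sgpl1, the S1P lyase, read 1248 in the DX5- sort against 2182 in the DX5+ sort, within 2-fold on this probe set. The second Sgpl1 probe set read 139 in DX5- and 358 in DX5+ cells, 2.58-fold lower in DX5- cells. When probe sets were averaged the Sgpl1 log2 ratio was -1.09, past 2-fold.

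Of 16 genes of lysophospholipid synthesis and breakdown, 12 were detected and all 12 were within 2-fold as deposited (median 0.04). With quantile, intensity-dependent or spike-in scaling 1 of the 12 was higher in DX5- cells by 2-fold or more. Abhd16a, the lipase that makes lysophosphatidylserine, read 1864 in the DX5- sort against 1297 in the DX5+ sort. Of 39 other receptors for lysophospholipids and related lipids, 30 were on the array, 16 were detected, 3 were higher by 2-fold or more and 1 lower by 2-fold or more (median 0.05). Gpr132, a receptor linked to lysophospholipids and oxidised fatty acids, was 3.59-fold higher in DX5- cells (2267 in DX5- and 631 in DX5+ cells), and its second probe set was 1.95-fold higher. Lpar6, a receptor for lysophosphatidic acid, was 2.30-fold higher and Cysltr2, a leukotriene receptor, 2.05-fold higher, whereas P2ry14, a receptor for UDP-sugars, was 4.58-fold lower (197.5 in DX5- and 904 in DX5+ cells). Gpr65, a proton sensor, read 7629 in the DX5- sort against 7359 in the DX5+ sort.

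The shared signalling parts differed little. Of 25 genes of G protein subunits and signalling downstream of them, 22 were detected and 20 were within 2-fold (median -0.13, and 0.09 with spike-in scaling). Gnai2, the Gi subunit through which most migration receptors signal, read 7148 in the DX5- sort against 6534 in the DX5+ sort. Gna13, a G protein through which S1pr2 signals, read 17248 in DX5- and 12026 in DX5+ cells. A further Gna13 probe set was 2.34-fold higher in DX5- cells (4984 in DX5- and 2131 in DX5+ cells), and its others were within 2-fold. The genes past 2-fold were Gng2 and Arhgef2. Gng2, a gamma subunit, was 2.31-fold higher, but within 2-fold on its 3 other probe sets. Arhgef2, a guanine nucleotide exchange factor, was 2.36-fold lower. When probe sets were averaged Arhgef2 was at -0.71 and Gng2 at 0.43 on the log2 scale, and 0 of the 18 genes then detected were past 2-fold. Of 15 detected genes of receptor desensitisation and traffic, 1 was past 2-fold, the ubiquitin ligase gene Nedd4 (2.47-fold higher; 3149 in DX5- and 1275 in DX5+ cells).

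Transcription factors and other regulators linked to S1pr1 and S1pr5 were split. Of 18 detected, 4 were 2-fold or more lower in DX5- cells, 0 higher by 2-fold or more and 14 within 2-fold (median -0.07). With spike-in scaling 3 were lower and 1 was higher by 2-fold or more (median 0.15). Klf2, which activates S1pr1 in lymphocytes, read 3039 in the DX5- sort against 6943 in the DX5+ sort, 2.28-fold lower, with a log2 ratio of -0.97, inside 2-fold, under spike-in scaling. Zeb2, a factor of late NK cell maturation, was 2.65-fold lower on its brightest probe set and 4.08 to 7.29-fold lower on its 4 others, 1 of these a bound. Eomes, a T-box factor, was 8.09-fold lower and Bach2, a repressor, 2.54-fold lower. Tbx21 encodes T-bet, which mouse NK cells need for S1pr5 expression, and read 9475 in the DX5- sort against 7704 in the DX5+ sort.

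Partners in homing and tissue exit went both ways. Of 15 detected, 6 were lower and 3 higher in DX5- cells by 2-fold or more (median -0.69). Cx3cr1, the fractalkine receptor, read 127 in the DX5- sort against 931 in the DX5+ sort, and Ccr7, the lymph node homing receptor, 731 in DX5- and 1543 in DX5+ cells. When probe sets were averaged the log2 ratio of Cx3cr1 was -0.81, and with spike-in scaling the log2 ratio of Ccr7 was -0.86. Cxcr6, the CXCL16 receptor of liver-resident lymphocytes, read 7425 in the DX5- sort against 772 in the DX5+ sort, and Itga1, a collagen-binding integrin chain, 999 in DX5- and 44.5 in DX5+ cells. Cdh1, the E-cadherin gene, was 6.85-fold higher in DX5- cells. Itgae, the CD103 chain of many resident T cells, went the other way, at least 2.69-fold lower (83.6 in DX5- and 265 in DX5+ cells), with a bound of 0 on the log2 scale under the 99th percentile limit. Klrg1, an inhibitory receptor gene, was 7.27-fold lower, Itgam (CD11b) 5.73-fold lower and Itga4, an integrin chain that binds VCAM1, 3.32-fold lower. This list overlaps with marker genes of resident and circulating NK cells known from earlier work, so its direction is not independent evidence.

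**Figure D3:**
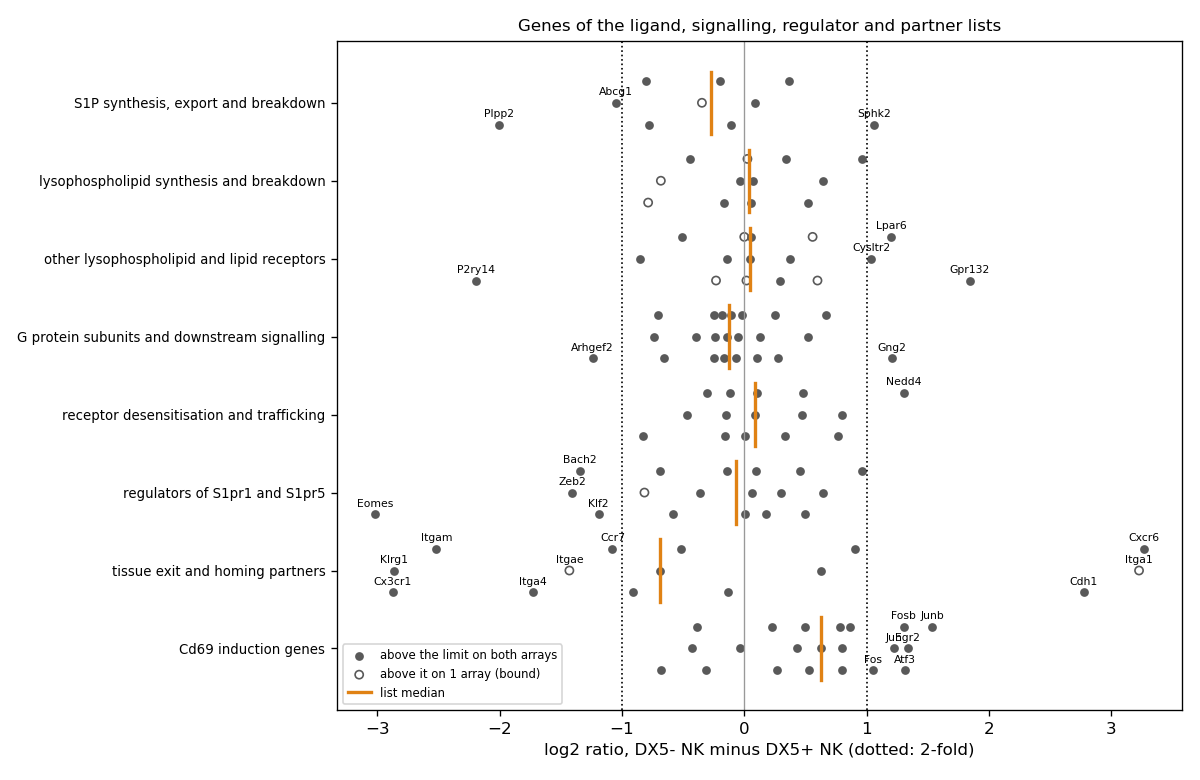
Each point is the log2 ratio (DX5- minus DX5+) of 1 detected gene in 8 lists of ligand, signalling, regulator and partner genes, open where it is a bound, with list medians in orange and dotted lines at 2-fold. The signalling lists cluster near 0, while the homing list spreads from Cx3cr1 at -2.87 to Cxcr6 at 3.27.

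Markers of the sort and of other cells were read beside these results. NK and type 1 innate lymphoid cell markers were detected in both populations, 8 of 8, with Eomes and the perforin gene Prf1 (2.89-fold; log2 ratio -0.90 when probe sets were averaged) lower in DX5- cells, and Itga2 was below the limit on both arrays (29.0 in the DX5- sort against 105 in the DX5+ sort). T cells carry S1pr1, Cd69 and Gpr183, and 3 of 7 detected T cell genes were 2-fold or more higher in DX5- cells, the CD3 chain genes Cd3g, Cd3e and Cd3d. Cd8a (at least 1.94-fold), Cd6 (1.91-fold) and Cd5 (at least 1.45-fold) were also higher but within 2-fold, Cd28 read 7668 in DX5- and 8442 in DX5+ cells, and Cd4 and Cd8b1 were below the limit on both arrays. With quantile, intensity-dependent or spike-in scaling 5 of the 7 were higher by 2-fold or more. The sort marker Cd247, whose zeta chain also signals for NK cell receptors, went the other way, 2.12-fold lower in DX5- cells (1144 in DX5- and 2425 in DX5+ cells; log2 ratio -0.87 with spike-in scaling and -0.70 when probe sets were averaged). The summed intensity of the 9 T cell genes on the array was 25296 in the DX5- sort against 10792 in the DX5+ sort. Most of this gap came from Cd3g alone, which read 14036 in DX5- and 1072 in DX5+ cells.

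B cells express S1pr1 and Gpr183, and of 6 detected B cell genes 0 were past 2-fold; the summed intensity of the list was 1568 in the DX5- sort against 1205 in the DX5+ sort. Endothelium expresses S1pr1, and 4 of its 9 markers were detected. Fcgr2b, also a gene of other cells, was lower in DX5- cells (378 in DX5- and 4001 in DX5+ cells), Pecam1 read 835 in the DX5- sort against 892 in the DX5+ sort, and Cdh5, Tek, Stab1, Lyve1 and Clec4g were below the limit on both arrays. Kdr read 112 in DX5- and 115 in DX5+ cells, and Stab2 80.5 in DX5- and 151 in DX5+ cells. The summed intensity of the endothelial list was 1529 in the DX5- sort against 5352 in the DX5+ sort, and without Fcgr2b 1151 in DX5- and 1351 in DX5+ cells.

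Gpr34 is known from macrophages and mast cells, and the part of such cells in its level was not tested. Of 13 macrophage and Kupffer cell genes 5 were detected and 4 were 2-fold or more lower in DX5- cells, with a summed intensity of 1392 in DX5- and 5839 in DX5+ cells. Under the 99th percentile limit 3 of 4 detected genes of this list were lower by 2-fold or more. Clec4f, Timd4, Cd163, Marco, Vsig4 and the C1q genes were below both limits. Of 5 mast cell and basophil genes 3 were detected, Cpa3 was 4.65-fold lower and Kit read 1738.5 in the DX5- sort against 1739 in the DX5+ sort, with a summed intensity of 1895 in DX5- and 2453 in DX5+ cells. All 6 platelet genes were 2-fold or more lower in DX5- cells, with a summed intensity of 1060 in DX5- and 5606 in DX5+ cells, on the same side as S1pr1 and S1pr5. With quantile, intensity-dependent or spike-in scaling, or an offset of 32, 5 of the 6 were lower by 2-fold or more. Under the 99th percentile limit 4 of the platelet genes were. Dendritic cell genes had 1 of 6 detected members lower by 2-fold or more, Siglech (summed intensity 7300.1 in DX5- and 6059 in DX5+ cells). Most of the sum of this list was Itgax, which read 5739 in DX5- and 3971 in DX5+ cells, within 2-fold. Hepatocyte genes had 1 of 4 lower by 2-fold or more, Ttr (summed intensity 1315.5 in DX5- and 2102 in DX5+ cells). The part of these cells in the levels of the receptors was not tested.

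**Figure D4:**
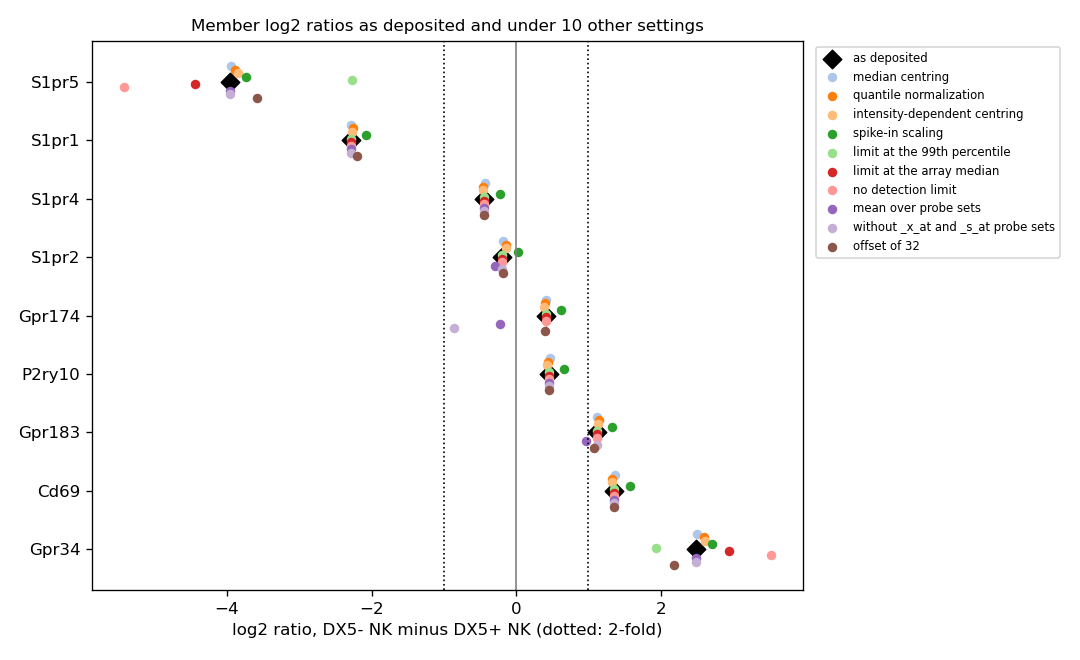
Log2 ratio (DX5- minus DX5+) of the 9 measured members as deposited (black diamonds) and under 10 other settings of scaling, detection limit, probe set rule and offset (coloured points), with dotted lines at 2-fold. S1pr1 lay between -2.29 and -2.07 and Cd69 between 1.33 and 1.58, S1pr5 ranged over -5.42 to -2.27 depending on the limit, and Gpr174 crossed 0 with the choice of probe set.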

How the data were processed

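Total RNA from each sorted population was labelled with biotin and hybridised to 1 Affymetrix array, per the labels' protocols. The authors made 1 intensity per probe set with MAS5, per the submitters' processing notes; the version and settings used are not stated there. The table the authors deposited has linear intensities of 45101 probe sets, with no detection calls, so a single value has no known error, and the precision of any comparison is limited by having 1 array a group.

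Names came from the platform annotation (34958 with 1 gene symbol, 932 with several, the others unnamed here), and 34754 of the single-gene ones matched a RefSeq table of assembly GRCm38.p6 by gene identifier. Each gene took its brightest probe set by mean log2 intensity. The deposited intensities were converted to log2 without rescaling or offset. Ratios, limits and bounds were computed with pandas 2.3.3 and numpy 2.4.6 and tested on simulated data. Members, gene lists and motifs were chosen with earlier results of these data known; the rule named members, sort markers and, within a list, genes past 2-fold and the 4 brightest within 2-fold, of which the text prints a part. Genes named below a limit, and S1pr3, P2ry10b, Gnai2, Irf7 and Nr4a3, were chosen after their values were seen. The alternatives were 4 scalings, 3 detection limits, 2 probe set rules and an offset of 32. Running them for the other lists as well was decided after seeing the data.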

Additional observations from a re-analysis of the deposited data

How the results depend on the processing

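No paired analysis was possible because each population had 1 array, and for the same reason no replicate could be left out. Under the 10 alternatives 2 members stayed lower by 2-fold or more, and 3 stayed higher by 2-fold or more except with the mean over probe sets, where Gpr183 was at 0.96 and 2 remained. A value was taken as moved when it shifted by more than the SD of 0.32 between probe sets of a gene. The bound for S1pr5 became -2.27 under the 99th percentile limit, -4.44 when the array median served as limit and -3.58 for an offset of 32, and its ratio was -5.42 if no limit was applied. For Gpr34 the values were 1.94, 2.95 and 3.52 under the 99th percentile limit, the array median limit and no limit. These shifts follow from the value that replaces a signal below the limit. Gpr174 was at -0.23 with the mean over probe sets and -0.86 without _x_at and _s_at probe sets. Over all genes, 529 were lower by 2-fold or more and 356 higher as deposited, 348 and 623 after spike-in scaling, 276 and 309 under the 99th percentile limit (317 in DX5- cells, 157 in DX5+ cells), and 2838 and 1888 with no limit. Of 49 genes past 2-fold named from the other lists, 45 kept their direction in every setting; the other 4 had a bound of 0 under the strictest limit. In every setting 30 of the 49 were past 2-fold; those that were not include Klf2, Abcg1, Sphk2, Cysltr2, Gng2, Arhgef2, Ccr7, Cx3cr1 and Fos. Low signals limit S1pr5 in DX5- cells and Gpr34 in DX5+ cells to bounds.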

Other observations

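Cd69 belongs to a cluster of lectin-like receptor genes, and its neighbours did not share its ratio. Of 14 such genes on the array 9 were detected, of which 0 were higher and 2 lower in DX5- cells by 2-fold or more, with a median log2 ratio of 0.06. Klrd1, the CD94 chain, read 15828 in the DX5- sort against 9282 in the DX5+ sort, within 2-fold. Klrb1b, an inhibitory receptor of the NK1.1 family, read 18066 in DX5- and 11901 in DX5+ cells on its brightest probe set, also within 2-fold. A further Klrb1b probe set was 2.07-fold higher in DX5- cells (5828 in DX5- and 2822 in DX5+ cells). The mean over the Klrb1b probe sets gave a log2 ratio of 0.83, inside 2-fold. Klrk1, the NKG2D receptor gene, read 6986 in the DX5- sort against 6714 in the DX5+ sort. The lower genes were Clec1b, a platelet receptor gene (98.7 in DX5- and 815 in DX5+ cells), and Clec7a, the receptor for fungal beta-glucan (131.5 in DX5- and 281 in DX5+ cells). With quantile, intensity-dependent or spike-in scaling, the 99th percentile limit or an offset of 32, only Clec1b was lower by 2-fold or more. Clec7a had a bound of 0 on the log2 scale under the 99th percentile limit, and Clec1b was just above the detection limit in DX5- cells.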
